A study of Mus musculus with 2 samples.

Results

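The genes described here encode the tyrosine kinases and adaptors that act directly after integrin engagement: the focal adhesion kinases Ptk2 (FAK) and Ptk2b (Pyk2), the Src family kinases Src, Fyn and Yes1, their negative regulator Csk, the scaffold Bcar1 (Cas), and the adaptors Crk, Crkl and Shc1. Members were all probe sets that the platform annotation of the MG_U74Av2 array maps to exactly 1 of these 10 genes. This gave 12 probe sets of 9 genes, out of 8251 genes named on the array, while Ptk2 was not analysed here. The cells were 3T3 fibroblasts (named MEF 3T3 in the labels), an immortalised mouse embryo line that normally grows attached to a surface. The fibronectin group had been plated on 10 ug/ml fibronectin for 30 min, the protein being a matrix glycoprotein that cells bind through integrins, and the suspension group was kept in suspension culture. Medium was serum-free DMEM in both groups, no genotype or further agent is given for either, and the sources used here do not state how long the suspension lasted. Total RNA of each group was hybridised to 1 array, so nothing here could be tested against a spread between replicates. All comparisons are of these 2 arrays, without p-values.

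Integrins have no kinase activity of their own. When they cluster on a ligand, FAK phosphorylates itself and recruits Src family kinases, which phosphorylate FAK further and the scaffold Cas. Phosphorylated Cas binds Crk adaptors, which lead through exchange factors to Rac and Rap1, while Shc1 links the receptors through Grb2 to Ras. Csk holds Src kinases inactive by phosphorylating their tail. These steps are changes of protein phosphorylation, which RNA levels do not measure. The arrays show the RNA of the components in whole cultures, where fewer cells of a type and less RNA per cell cannot be told apart.

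On these arrays the log2 ratios of the components, fibronectin over suspension, did not all have the same sign. Of the 9 genes, 8 were measured, meaning that at least 1 array reached a common floor signal of 489.8, the mean of the arrays' 40th percentiles. Of these 8 genes, 0 passed 2-fold upward on fibronectin and 0 passed it downward. Of all 6385 measured genes, 5.79% passed 2-fold upward and 9.27% downward. At 1.5-fold, 3 members were higher, Yes1, Fyn and Ptk2b, and 1 was lower, Src. The shares of all measured genes past 1.5-fold were 15.9% higher and 22.6% lower. The member median log2 ratio, fibronectin over suspension, was 0.33, beside -0.09 over all measured genes. When 9 spiked hybridisation controls set the scale of the arrays, these medians were -0.15 and -0.51. The only estimate of error is technical: log2 ratios of different probe sets of 1 gene had an SD of 0.70 over 1146 genes. All 8 genes' ratios but those of Src, Yes1, Fyn and Ptk2b (0.71) lay within it. Of these, only Src was lower on fibronectin, where its signal was below the floor. This SD pools all signal levels, though 18.8% of genes in the lowest tertile of signals passed 2-fold either way. In the middle and highest tertiles 20.1% and 6.29% did. Src, Yes1 and Ptk2b lie in the lowest tertile and Fyn in the middle one.

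**Figure D1:**
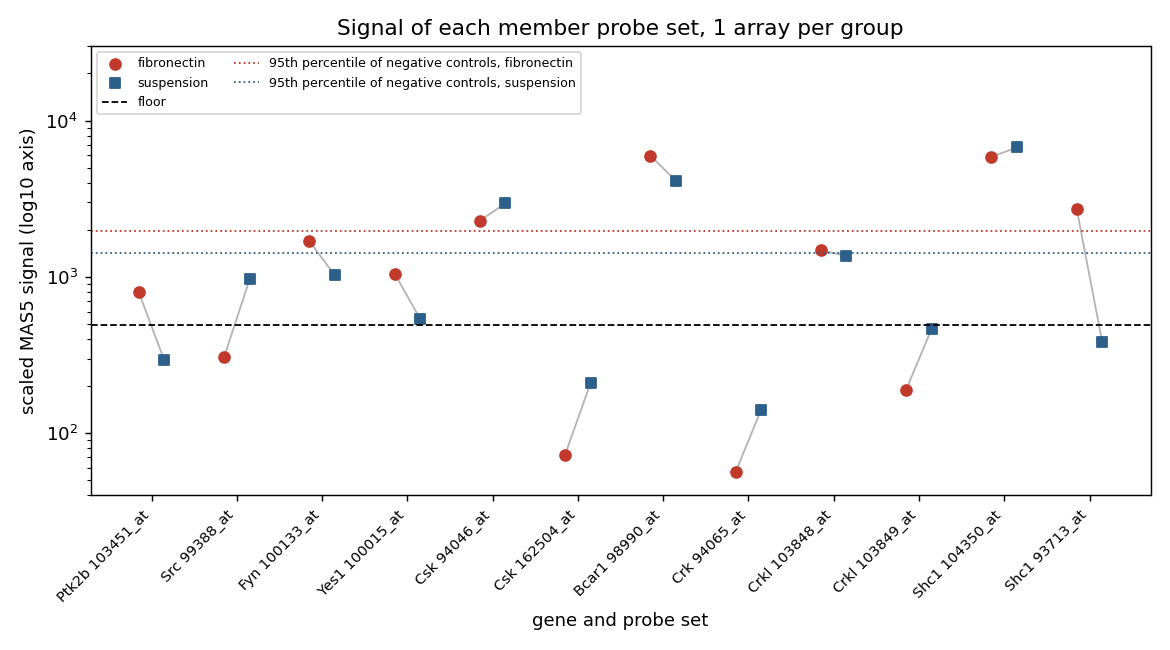
Scaled MAS5 signal (log10 axis) of each of the 12 member probe sets on the fibronectin array (circles) and the suspension array (squares), with the floor (dashed) and each array's 95th percentile of negative controls (dotted). Both signals of Csk 94046_at, Bcar1 98990_at and Shc1 104350_at lie above the dotted lines, while 3 probe sets lie below the floor on both arrays.

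Promoter sequences from RefSeq (build GRCm38.p6, 250 bases before to 50 after the gene's start) are shown for the Src family kinases, whose ratios differ in sign, and for both starts of Shc1, whose probe sets disagree. Capitals mark matches to motifs searched on both strands: the GC box GGGCGG, the CCAAT box CCAAT, the TATA box TATAAA, AP-1 TGANTCA, CRE TGACGTCA, the E-box CACGTG and the CArG box, the element bound by SRF. In the same order these occur in 35.7%, 37.4%, 13.6%, 7.81%, 1.79%, 7.15% and 1.63% of 32851 promoter windows of this length.
Src promoter, chr2:157424043-157424342, plus strand: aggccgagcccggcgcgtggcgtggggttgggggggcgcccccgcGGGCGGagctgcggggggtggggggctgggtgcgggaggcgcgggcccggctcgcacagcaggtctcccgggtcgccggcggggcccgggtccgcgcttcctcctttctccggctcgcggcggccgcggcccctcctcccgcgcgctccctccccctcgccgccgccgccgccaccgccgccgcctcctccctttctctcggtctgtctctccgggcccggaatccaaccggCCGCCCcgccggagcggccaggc
Fyn promoter, chr10:39369549-39369848, plus strand: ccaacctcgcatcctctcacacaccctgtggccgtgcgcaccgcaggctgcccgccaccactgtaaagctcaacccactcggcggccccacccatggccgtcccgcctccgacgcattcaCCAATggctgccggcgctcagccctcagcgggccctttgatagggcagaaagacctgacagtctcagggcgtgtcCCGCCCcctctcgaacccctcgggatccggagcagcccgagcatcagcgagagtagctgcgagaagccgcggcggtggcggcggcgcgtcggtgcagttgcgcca
Yes1 promoter, chr5:32610921-32611220, plus strand: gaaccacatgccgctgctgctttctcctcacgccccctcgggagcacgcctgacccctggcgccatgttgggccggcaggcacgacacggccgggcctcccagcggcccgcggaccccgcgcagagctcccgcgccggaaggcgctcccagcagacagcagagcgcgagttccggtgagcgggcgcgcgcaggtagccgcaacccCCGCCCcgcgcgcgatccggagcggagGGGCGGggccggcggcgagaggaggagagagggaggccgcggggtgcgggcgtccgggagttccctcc
Shc1 promoter at the first start, chr3:89418301-89418600, plus strand: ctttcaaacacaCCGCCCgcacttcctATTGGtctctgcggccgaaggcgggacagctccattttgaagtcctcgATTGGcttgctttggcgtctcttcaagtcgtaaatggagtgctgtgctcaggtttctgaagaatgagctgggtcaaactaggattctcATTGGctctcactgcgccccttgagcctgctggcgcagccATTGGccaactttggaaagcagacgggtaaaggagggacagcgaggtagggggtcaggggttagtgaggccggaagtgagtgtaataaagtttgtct
Shc1 promoter at the second start, chr3:89421371-89421670, plus strand: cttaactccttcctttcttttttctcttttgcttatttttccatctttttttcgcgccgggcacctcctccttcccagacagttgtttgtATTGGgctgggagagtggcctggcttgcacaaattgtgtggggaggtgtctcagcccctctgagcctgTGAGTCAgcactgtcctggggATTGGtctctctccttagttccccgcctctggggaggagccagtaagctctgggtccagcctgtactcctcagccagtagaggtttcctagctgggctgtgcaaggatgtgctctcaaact

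The Src window holds 2 GC boxes and 47 CpG dinucleotides, Fyn 1 GC box, 1 CCAAT box and 31 CpG, and Yes1 2 GC boxes and 42 CpG. Of the motifs searched, the Src and Yes1 windows matched the GC box only. Whether the motifs bear on the ratios was not tested. The first Shc1 window holds 1 GC box, 4 CCAAT boxes and 13 CpG, and the second holds 2 CCAAT boxes, 1 AP-1 match and 4 CpG. RefSeq windows were found for 8 of the 10 genes, 11 windows in all, with 72.7% of them holding a GC box and 72.7% at least 20 CpG. Over 21263 windows of protein-coding genes these shares were 46.2% and 35.9%. The TATA box and the CArG box matched 0 of the 11 windows. Crkl was the one member with a CRE match. A match is a description of the sequence and not a bound site.

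Among the kinases, Yes1 (probe set 100015_at) had a signal of 1051 on fibronectin, against 539 in suspension. It was 1.95-fold higher, a log2 ratio of 0.96, and 93.6% of measured genes had a lower ratio. Yes1 passed 2-fold under median scaling (log2 ratio 1.17), quantile normalization (1.16) and a loess fit (1.19), and had 0.49 with scaling to the spikes. Yes1 is a broadly expressed Src family kinase that can stand in for Src after integrin binding.

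Fyn (100133_at), another broadly expressed member of that family, had a signal of 1694 on fibronectin, against 1023 in suspension. It was 1.66-fold higher, a log2 ratio of 0.73. Both Yes1 and Fyn were higher on fibronectin under each scaling run, but their signals lay within the range of the negative controls. These are bacterial and reverse-strand probe sets, taken here to find no target. Whether RNA of the bacterial genes had been added to the samples was not tested. Of 30 negative controls, 3 were brighter than Fyn on fibronectin and 7 in suspension, and 3 and 13 were brighter than Yes1. With the floor raised to the level of the negative controls, a signal of 1688, Yes1 was not measured. Fyn in suspension then lay below the floor, so its log2 ratio of 0.0050 is only a bound.

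Src (99388_at), the founding member of the family, went the other way. Its signal was 306 on fibronectin, below the floor, against 963 in suspension, which makes it at least 1.97-fold lower, a bound of -0.97 on the log2 scale. Only 9.73% of measured genes had a lower ratio. In the lowest tertile of signals, where Src lies, 19.5% of genes had a larger absolute ratio, and 18.8% were at least 2-fold apart either way. Its log2 ratio was -1.66 without a floor and also with a lower one, at the 20th percentile. With scaling to the spikes its log2 bound was -1.18. On fibronectin 14 of the 30 negative controls were brighter than Src, and in suspension 8, so neither signal is clear of background.

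A scaling by 1 factor per array shifts the ratios of Src and its relatives alike, except where a signal meets the floor. As the ratio of Src is a bound, so are these differences: the log2 ratio of Yes1 exceeded that of Src by at least 1.94 and that of Fyn exceeded it by at least 1.70, beside an SD of 0.99 for a difference between probe sets. They rest on Src signals that are not clear of background. Under the 6 alternatives that measured both genes, the first difference ran from 1.67 to 2.62 and the second from 1.43 to 2.38. Yes1 and Fyn differed by 0.23. These pairs were picked after their values were seen and got no test.

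Ptk2b (103451_at), the calcium-responsive relative of FAK, had a signal of 799 on fibronectin, against 293 in suspension, below the floor. It was at least 1.63-fold higher, a log2 bound of 0.71, and in the lowest tertile of signals 35.7% of genes had a larger absolute ratio. With the floor at the 20th percentile its log2 ratio was 1.45. Of the negative controls, 5 were brighter than Ptk2b on fibronectin and 20 in suspension.

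Csk, the kinase that restrains the Src family, was read from 94046_at, with a signal of 2290.5 on fibronectin, against 2949.5 in suspension. It was 1.29-fold lower, a log2 ratio of -0.36, and 49.4% of genes in the highest tertile of signals had a larger absolute ratio. It was below 0 under each of the 8 other scalings and floors, from -0.84 with the spikes to -0.16 with median scaling. Its second probe set, 162504_at, lay below the floor on both arrays, with signals of 72.9 on fibronectin and 211 in suspension, and gives no ratio.

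**Figure D2:**
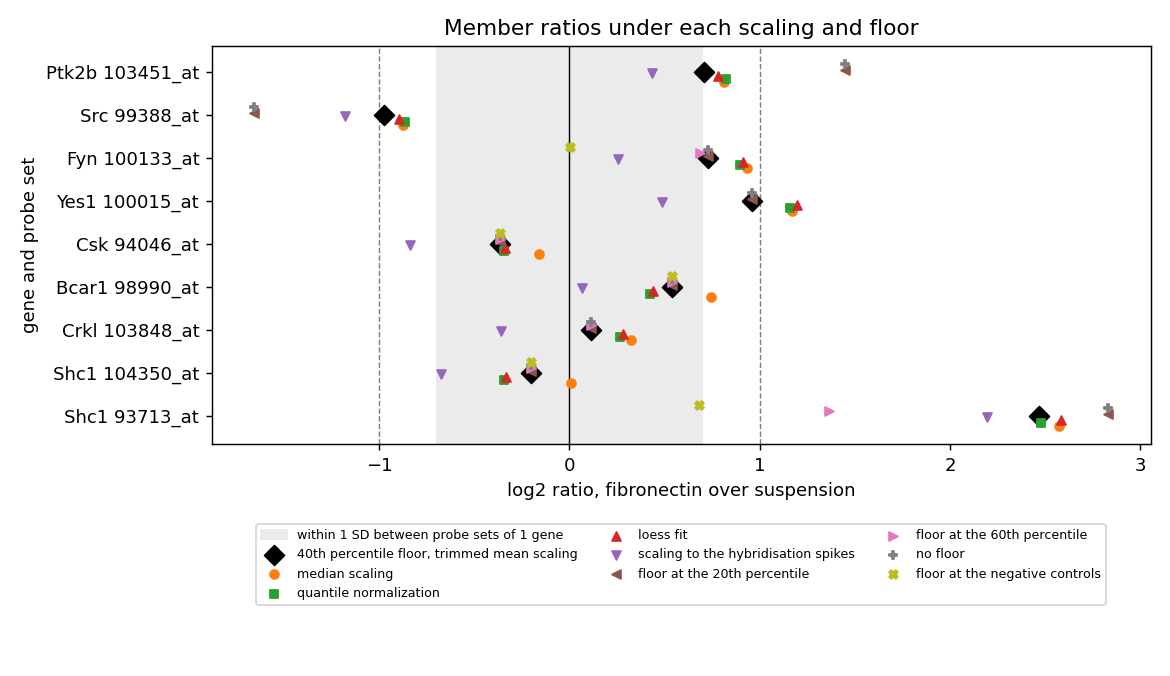
Log2 ratio, fibronectin over suspension (horizontal axis), of the 9 measured member probe sets under each scaling and floor, with the values of the text as black diamonds, dashed lines at 2-fold and a grey band of 1 SD between probe sets of 1 gene (0.70). Src lies below 0 and Yes1, Fyn, Ptk2b and Bcar1 above 0 wherever they were measured, while Crkl and Shc1 104350_at each cross 0 under 1 setting.

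Among the adaptors, the scaffold gene Bcar1 (98990_at) had the clearest signal of those that were higher on fibronectin, 5967 on fibronectin against 4108 in suspension, above every negative control on both arrays. It was 1.45-fold higher, a log2 ratio of 0.54, and 82.4% of measured genes had a lower ratio. In the highest tertile of signals 31.5% of genes had a larger absolute ratio. Its ratio ran from 0.065 with scaling to the spikes to 0.75 with median scaling.

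The Crk adaptors differed in signal. Crk (94065_at) lay below the floor on both arrays, with 56.7 on fibronectin and 141 in suspension. Crkl, its close paralog, was read from 103848_at, with 1477 on fibronectin and 1363 in suspension, a log2 ratio of 0.12. This ratio was -0.36 with scaling to the spikes. In the middle tertile of signals 86.9% of genes had a larger absolute ratio than Crkl. Its second probe set, 103849_at, was below the floor on both arrays, with 190.1 on fibronectin and 467 in suspension. A signal below the floor does not show that the RNA was absent.

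Shc1, the adaptor that leads to Grb2 and Ras, gave opposite pictures in its probe sets. The brighter one, 104350_at, had 5858 on fibronectin against 6736 in suspension, a log2 ratio of -0.20, or 0.0058 with median scaling. The other, 93713_at, had 2707 on fibronectin against 381 in suspension, below the floor, and was thus at least 5.53-fold higher, a log2 bound of 2.47. On fibronectin its signal was above every negative control, and in suspension 17 of 30 were brighter. It stayed at least 2-fold higher in 8 of 9 settings, with a log2 bound of 0.68 where the floor was that of the negative controls. Among probe sets with 1 gene, 6.40% were at least 2-fold higher. The gap of 2.67 between the log2 ratios of the probe sets was matched or exceeded in 1.57% of the 1146 genes with several measured probe sets. The sources used here do not state which Shc1 transcripts each probe set reads, and the gene has more than 1 RefSeq start, as shown above. Averaging both probe sets would put Shc1 past 2-fold higher.

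**Figure D3:**
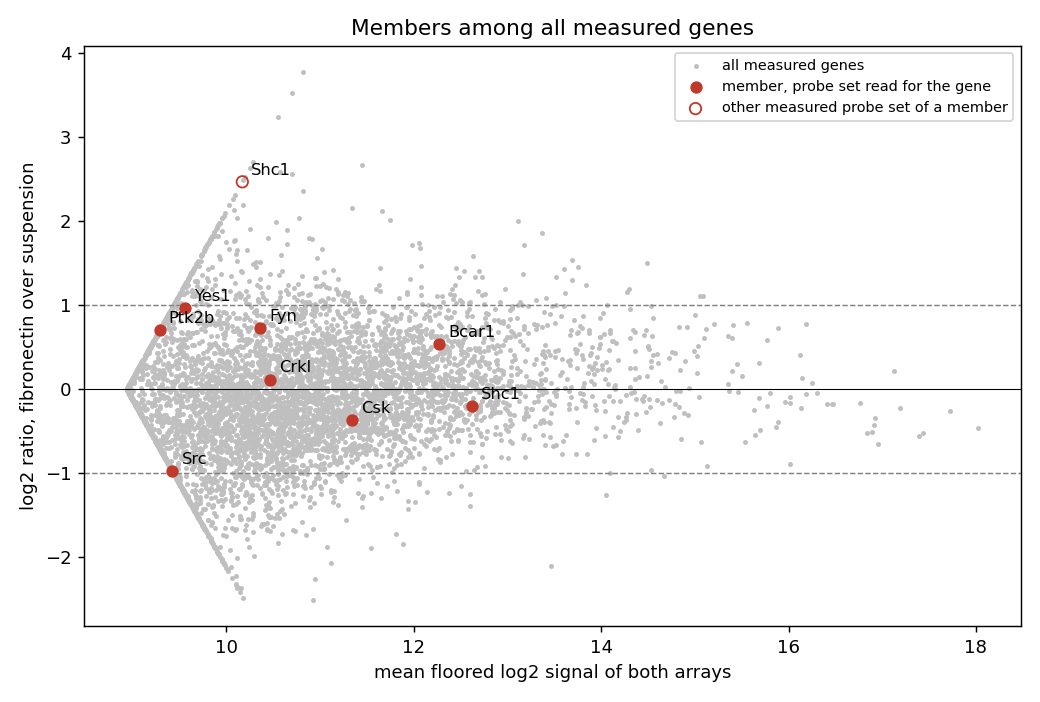
Log2 ratio, fibronectin over suspension, against the mean floored log2 signal of both arrays for all 6385 measured genes (grey) and the members (red, with the second Shc1 probe set open). The probe sets read for the 8 genes lie between the dashed 2-fold lines, and the second Shc1 probe set lies at 2.47; the oblique edges hold genes with 1 array at the floor.

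The rest of the pathway was described from 5 lists of related genes. Of all measured genes, 15.9% passed 1.5-fold upward and 22.6% downward. In the order below, the shares of each list were 20%, 33.3%, 21.1%, 20% and 37.5% upward. Downward they were 50%, 25%, 21.1%, 13.3% and 6.25%. Of 10 measured other cytoplasmic tyrosine kinases, 2 passed 1.5-fold upward on fibronectin and 5 passed it downward, with a median log2 ratio of -0.29. Abl1, which also phosphorylates Crk adaptors, had 5864 on fibronectin against 4020 in suspension, a log2 ratio of 0.54. The cytokine receptor kinase Tyk2 was 2.31-fold higher, with 1154 on fibronectin against 499 in suspension, just above the floor. Tyk2 in suspension was dimmer than 13 of the 30 negative controls. Jak2, of the same family, was at least 3.21-fold lower, with 362 on fibronectin against 1572 in suspension, and its other probe set was below the floor on both arrays. Syk was 1.92-fold lower in the probe set read, and its other lay below the floor on both arrays. Blk was at least 1.93-fold lower, with a log2 bound of -0.04 in its other probe set. Zap70 was 1.56-fold lower in 1 of 3 probe sets, the others being below the floor on both arrays. That probe set had 512 on fibronectin, just above the floor. Lyn and Lck, of the Src family, were not analysed here.

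Of 12 measured phosphatases, ubiquitin ligases and inhibitors that act on FAK or Src, 4 passed 1.5-fold upward and 3 passed it downward, with a median of 0.23. Cav1, the caveolar protein that Src phosphorylates, was 2.18-fold higher in the probe set read, with 8146 on fibronectin against 3731 in suspension, but 2.23-fold lower in the dimmer one. Cbl, the ubiquitin ligase that marks active kinases for degradation, was 1.87-fold higher, with 959 on fibronectin against 513 in suspension. Its suspension signal was just above the floor, with 13 of the 30 negative controls brighter. The docking proteins Dok1 and Dok2 were 1.74-fold and at least 1.86-fold lower. Dok2 had 236 on fibronectin, below the floor, against 909 in suspension, with 18 and 8 of the 30 negative controls brighter. Acp1, the low molecular weight phosphatase, was 2.33-fold lower in the probe set read, while its other measured probe sets had log2 ratios from -0.64 to 1.64, so its direction was not settled. Ptpra, which activates Src by removing the phosphate that Csk adds, had 1958 on fibronectin against 1661 in suspension, a log2 ratio of 0.24. Ptpn11 was below the floor on both arrays.

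In the Cas and Crk branch to Rac and Rap1, 4 of 19 measured genes passed 1.5-fold upward and 4 passed it downward, with a median of -0.22. The small GTPase gene Cdc42 was 2.11-fold higher, with 5326 on fibronectin against 2520 in suspension. Tiam1, an exchange factor of Rac, was 2.19-fold higher in the probe set read and 1.95-fold lower in the other. The former had 504 in suspension, just above the floor, with 13 of the 30 negative controls brighter. The kinase gene Pak3 was 1.86-fold higher, with 916 on fibronectin against 493 in suspension, just above the floor. Arhgef7, the exchange factor that binds Pak kinases, was 1.82-fold lower, with 1711 on fibronectin against 3109 in suspension, and Abi1 at least 1.59-fold lower. Abi1 had 127 on fibronectin, below the floor, against 778 in suspension, with 20 and 10 of the 30 negative controls brighter. Dock1 and Nedd9, which partner Crk, were not analysed here.

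In the Shc and Grb2 branch to Ras and PI3K, 3 of 15 measured genes passed 1.5-fold upward and 2 passed it downward, with a median of 0.17. The docking protein gene Gab1 was 2.55-fold higher, with 2850.0 on fibronectin against 1118 in suspension, and its other probe set had a log2 ratio of 0.28. Grb2 had 4044 on fibronectin against 2789.8 in suspension, a log2 ratio of 0.54. Sos1, the Ras exchange factor that Grb2 carries, was at least 2.28-fold lower, with 312 on fibronectin against 1115 in suspension. Pik3ca, the catalytic subunit of PI3K, was at least 1.88-fold higher in the probe set read and at least 1.61-fold higher in the other. Grb10 was 1.78-fold higher in the probe set read and 1.41-fold lower in another, and Grb7 was 1.52-fold lower.

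Of 16 measured integrins and plaque partners of FAK, 6 passed 1.5-fold upward and 1 passed it downward, with a median of 0.16. The fibronectin receptor subunits Itga5 and Itgb1 were at least 9.40-fold and 2.22-fold higher, with 1.24-fold in the other probe set of Itgb1, and the alpha v subunit gene Itgav was 1.64-fold higher. Vcl, the actin linker vinculin, was 1.77-fold higher, with 9880.4 on fibronectin against 5583 in suspension, and 1.94-fold higher in its other probe set. Paxillin (Pxn), the FAK-binding plaque adaptor, had 2429 on fibronectin against 3419 in suspension, a log2 ratio of -0.49. Its relative Tgfb1i1 (Hic-5) was 1.78-fold lower. With scaling to the spikes the medians of all 5 lists were below 0, from -0.55 to -0.18, where the median of all measured genes was -0.51.

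**Figure D4:**
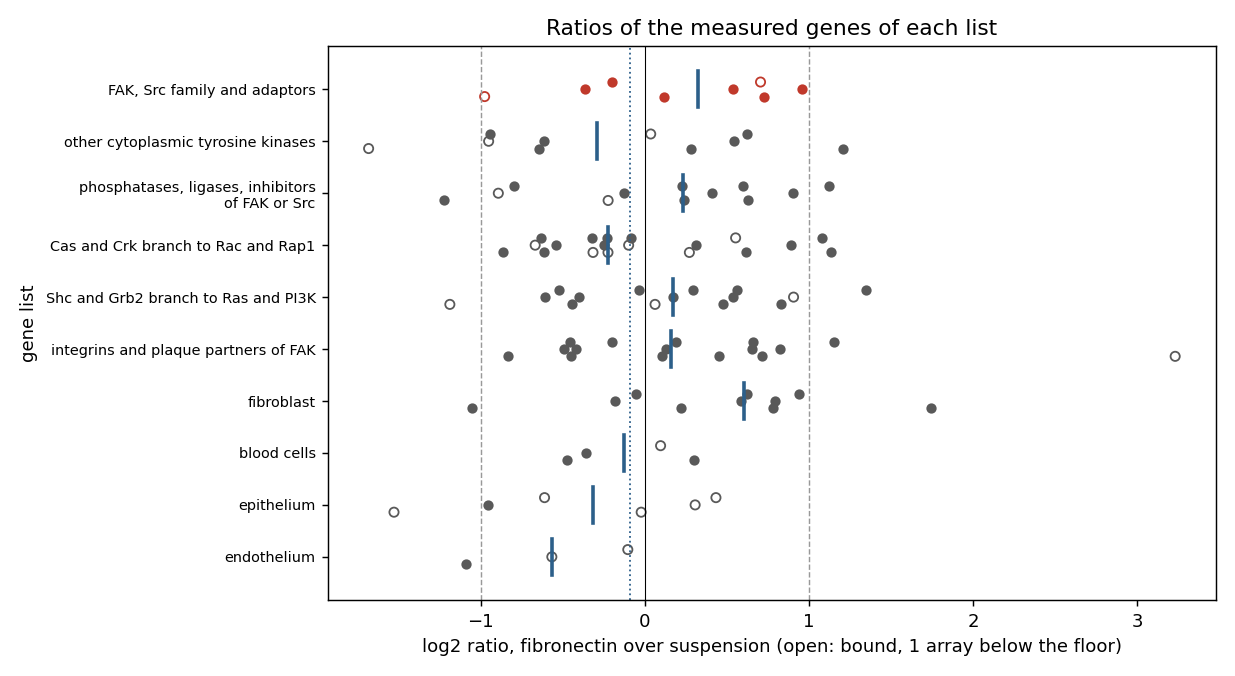
Log2 ratio, fibronectin over suspension (horizontal axis), of the measured genes of each list, with open points for bounds, short bars for list medians, a dotted line for the median of all measured genes (-0.09) and dashed lines at 2-fold. The members (red) run from -0.97 to 0.96, and Itga5 lies far to the right at 3.23.

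The arrays' 2% trimmed means were 1486 on fibronectin and 1489 in suspension, and their medians 678 and 785. The arrays differed in 4 of 32 recorded instrument settings (scan day, fluidics module, operator and chip lot), which cannot be told apart from the group. Over all measured genes, 370 passed 2-fold upward and 592 downward. These counts were 596 and 405 with median scaling, 466 and 448 with quantile normalization, 466 and 442 with the loess fit, and 134 and 1409 with scaling to the spikes. Of 12 fibroblast markers 10 were measured, and the summed signal of the list was 264022 on fibronectin and 183033 in suspension. Here and in the marker lists that follow, sums take all probe sets of the listed genes, also those below the floor. Col1a1, Col1a2, Fn1 and S100a4 were bright on both arrays, while Vim had 686 on fibronectin and 1421 in suspension, among the negative controls, and Thy1 was below the floor on both. Of the blood cell markers 4 of 10 were measured, with sums of 8418 and 10751 on the fibronectin and suspension arrays, and Ptprc, which defines leukocytes, was below the floor on both arrays in all its probe sets. Epithelial markers were measured in 6 of 8, with sums of 3220.3 and 6099.8, and endothelial markers in 3 of 7, with sums of 4104 and 7579, in the same order. The summed signals of these 3 lists were lower on fibronectin, as was the signal of Src. The median of the 30 negative controls was lower there too, 292 on fibronectin against 459 in suspension. Their 95th percentile was higher on fibronectin, 1965 against 1411. Cd68, Krt8 and Pecam1 lay among the negative controls on both arrays. Of the 6 measured epithelial markers, 2 were higher on fibronectin, Krt8 among them, and 4 lower. Cdh1 had 1112 on fibronectin and 2154 in suspension, where it was above every negative control. Cldn4 had 203 on fibronectin and 1412 in suspension, with 2 brighter controls there. The brighter probe set of Csf1r had 1443 on fibronectin and 1844 in suspension, above every control there, while its other one was higher on fibronectin. Cd14, with 3857 on fibronectin and 5342 in suspension, was above every negative control on both. Eng, with 2428 and 5167 in that order, had 1 brighter control on fibronectin. Whether these sums hold background or signal of other cell types was not tested. The part of background and of these markers in the result for Src was not tested.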

How the data were processed

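The authors deposited 1 intensity per probe set and array, a MAS5 signal on a linear scale, per the submitters' processing notes. Not given in the sources used here are the version of MAS5, its scaling target and a genome build, and detection calls were not used. The other deposited files hold instrument settings only. The series text mentions 2 replicates, whereas the labels give 1 sample per group. The array number limits the precision.

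Signals of each array were scaled by the 2% trimmed mean of its 12422 non-control probe sets and brought to the mean of both (factors 1.00 on fibronectin and 0.999 in suspension). Signals below the floor were set to it, then log2 was taken. Where 1 array was below the floor, the ratio is a bound (at least N-fold). Of 12488 probe sets 10855 had 1 gene symbol, 396 several and 1237 none; 10839 matched RefSeq (GRCm38.p6) by gene ID. A gene was read from its probe set with the highest mean floored log2 signal. Negative controls were 30 control probe sets, reverse-strand or of the bacterial Dap, Lys, Phe, Thr and Trpn genes. Members and lists were chosen with earlier results of these data known. The named genes are all members, from each list up to 5 measured genes with the largest absolute ratio, and 10 fixed genes (Itga5, Itgb1, Pxn, Grb2, Dock1, Nedd9, Ptpn11, Ptpra, Lyn, Abl1), while further genes named as not analysed here or as markers add no ratio. With 2 arrays each gene has 1 ratio, so no gene was named for likeness of pattern. The computation was tested on simulated data with changes placed in bright probe sets only, so that test does not cover signals near the floor. It was run in Python 3.11.15 with numpy 2.4.6, pandas 2.3.3, statsmodels 0.14.6 (loess span 0.3) and matplotlib 3.10.9.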

Additional observations from a re-analysis of the deposited data

How the results depend on the processing

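No paired analysis was possible because each group has 1 array. For the same reason no replicate could be left out. Of the 8 measured members, 1 was at least 2-fold higher with median scaling, quantile normalization or loess (Yes1), with a 20th percentile floor or none (Ptk2b) and with the mean of a gene's probe sets (Shc1), and 3 at 1.5-fold. At least 2-fold lower was 1 with the spikes or the floor at the 20th percentile (Src), 2 of 9 with no floor (Src and Crk, Crk being measured only there), and 1 at 1.5-fold. The member median was -0.15 with the spikes, -0.10 with the floor at the negative controls (4 genes measured) and 0.62 with the mean of probe sets. Ptk2b had a log2 ratio of 1.45 with the floor at the 20th percentile and with no floor. Fyn had a log2 bound of 0.0050 with the floor at the negative controls. Shc1 93713_at had log2 bounds of 1.36 with the floor at the 60th percentile and 0.68 at the negative controls. Src, Yes1 and Ptk2b were not measured with either higher floor.

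Over all genes, at least 2-fold higher and lower were 817 and 1179 with the floor at the 20th percentile, 155 and 158 at the 60th, 931 and 1542 with no floor, 95 and 44 at the negative controls, and 134 and 1409 with the spikes. Genes measured in these settings numbered 7673, 4545, 8251, 3237 and 6364, in that order. Median scaling gave 596 higher. At 1.5-fold the counts higher and lower were 1014 and 1440, and at 3-fold 88 and 120. With median scaling the list medians were 0.44 (phosphatases, ligases and inhibitors), -0.029 (Cas and Crk branch), 0.38 (Shc and Grb2 branch) and 0.37 (integrins and plaque), and with the spikes -0.18, -0.52, -0.18 and -0.28 in that order. Other cytoplasmic kinases had -0.55 with the spikes, -0.074 with the floor at the 20th percentile, -0.081 with no floor and 0.54 with it at the negative controls. Phosphatases, ligases and inhibitors had -0.13 with the floor at the 20th percentile and with no floor. The cause of these shifts was not tested. Of 12 member probe sets, 3 had signals above the 95th percentile of negative controls on both arrays.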
